A study of Homo sapiens with 9 samples.

Results

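CCBE1, the VEGF ligands VEGFA, VEGFB, VEGFC and PGF, the protease ADAMTS3 and the VEGF receptors FLT1, KDR and FLT4 were followed across 3 groups of MDA-MB-231 libraries. These 9 genes were taken by symbol from the 60649 genes of the count table. The set was chosen by the level of CCBE1, which was nearly lost with both hairpins against AHR, so the change of CCBE1 is described without a test, and the other 8 genes were added for their place in the pathway. Of the 9 genes, 7 had enough counts to be tested and FLT1 and FLT4 did not.

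The line MDA-MB-231 came from a human breast cancer without hormone receptors or HER2 amplification (triple-negative) and has mesenchymal features, and the experiment asked what lowering AHR, a ligand-activated transcription factor, does to its RNA. The control libraries came from cells with the PLKO-GFP vector, and the others from cells with the short hairpin RNA shAHR#2 or shAHR#3, at 3 libraries a group. Lentivirus carried the hairpins into the cells. What remained after puromycin selection was kept together, and no picking of single clones was described. How many founding cells made up each group was not given. All cells grew in DMEM with 10% fetal bovine serum, and the label for treatment reads proliferation in every group. Total counts lay between 17407688 and 19509030 for PLKO-GFP, between 15991396 and 19112459 for shAHR#2 and between 19436825 and 20374460 for shAHR#3. The labels do not say whether replicates were separate cultures, so p-values measure only the spread between these libraries, which may be technical.

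VEGF ligands are secreted dimers that bind receptor tyrosine kinases found mainly on blood and lymphatic endothelium. VEGFA binds FLT1 and KDR and drives blood vessel growth, VEGFB and PGF bind FLT1, and VEGFC acts on FLT4 and, once fully cleaved, on KDR to drive lymphatic vessel growth. VEGFC is made as an inactive precursor, and the secreted protein CCBE1 brings it together with ADAMTS3, which cuts it into its active form; tumor cells commonly secrete these ligands while carrying few of the receptors.

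Promoter sequences are given for CCBE1 and KDR, which had lower counts with both hairpins, for PGF, which rose with both, for ADAMTS3, which rose with shAHR#2, and for VEGFC, whose level moved least with shAHR#3. Each runs 5′ to 3′ on the strand of the gene over 300 bases, from 250 before to 50 after the start of transcription, and comes from RefSeq on build GRCh38.p14. For CCBE1 the RefSeq start lies inside the gene span given below, chr18:59430939-59697662, so nearly all of its window falls within that span. Capitals mark matches to the AHR-ARNT core GCGTG and to the hypoxia core ACGTG on either strand, so a match on the other strand reads CACGC or CACGT, and the cores share their last 4 letters.
CCBE1, chr18:59697374-59697673, minus strand: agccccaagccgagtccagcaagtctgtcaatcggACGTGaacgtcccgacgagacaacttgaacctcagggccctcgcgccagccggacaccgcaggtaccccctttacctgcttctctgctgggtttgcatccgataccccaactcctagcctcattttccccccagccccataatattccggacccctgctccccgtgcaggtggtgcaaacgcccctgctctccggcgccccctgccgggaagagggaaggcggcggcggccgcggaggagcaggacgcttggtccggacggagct
ADAMTS3, chr4:72569172-72569471, minus strand: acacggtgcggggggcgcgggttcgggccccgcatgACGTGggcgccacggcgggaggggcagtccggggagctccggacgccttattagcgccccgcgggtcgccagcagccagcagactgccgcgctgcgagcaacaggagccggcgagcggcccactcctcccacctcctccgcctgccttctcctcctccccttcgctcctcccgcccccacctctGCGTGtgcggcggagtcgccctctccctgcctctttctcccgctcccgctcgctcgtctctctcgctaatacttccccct
VEGFC, chr4:176792873-176793172, minus strand: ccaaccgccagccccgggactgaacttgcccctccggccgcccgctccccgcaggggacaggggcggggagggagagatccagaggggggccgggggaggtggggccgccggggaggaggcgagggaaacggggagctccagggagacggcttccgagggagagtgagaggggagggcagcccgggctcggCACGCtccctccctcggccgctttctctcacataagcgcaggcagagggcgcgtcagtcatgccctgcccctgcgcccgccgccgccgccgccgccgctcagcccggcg
PGF, chr14:74955548-74955847, minus strand: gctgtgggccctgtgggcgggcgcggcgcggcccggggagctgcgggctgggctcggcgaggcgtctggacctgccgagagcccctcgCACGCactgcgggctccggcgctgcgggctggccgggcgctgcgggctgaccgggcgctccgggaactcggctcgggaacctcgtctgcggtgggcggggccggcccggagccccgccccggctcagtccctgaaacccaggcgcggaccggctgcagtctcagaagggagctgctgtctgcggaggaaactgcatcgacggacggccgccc
KDR, chr4:55125546-55125845, minus strand: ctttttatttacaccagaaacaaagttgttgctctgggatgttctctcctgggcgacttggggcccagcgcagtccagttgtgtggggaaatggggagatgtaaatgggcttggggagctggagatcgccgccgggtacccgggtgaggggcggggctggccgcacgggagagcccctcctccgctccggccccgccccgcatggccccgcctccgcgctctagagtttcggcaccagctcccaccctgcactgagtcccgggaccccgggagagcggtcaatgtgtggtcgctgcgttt
RefSeq windows were found for 7 of the 9 genes, all but VEGFA and FLT4, and PGF had 2 windows that overlapped. The AHR-ARNT core matched in windows of 5 of these 7 genes, ADAMTS3, VEGFB, VEGFC, PGF and FLT1, and 36.5% of all 35116 windows of this length held it. In both PGF windows the match was the same stretch of the genome, counted from 2 starts. The hypoxia core matched in CCBE1, from 215 to 211 bases before the RefSeq start and inside the gene span given below. It also matched in ADAMTS3, from 214 to 210 bases before the start, and 21.4% of all windows held it. KDR had neither. The windows of these genes held from 65% (KDR) to 84.7% (VEGFB) G and C. The shares over all windows were not matched for this, so they are no like comparison. These matches describe letters in the windows and say nothing of binding.

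**Figure D1:**
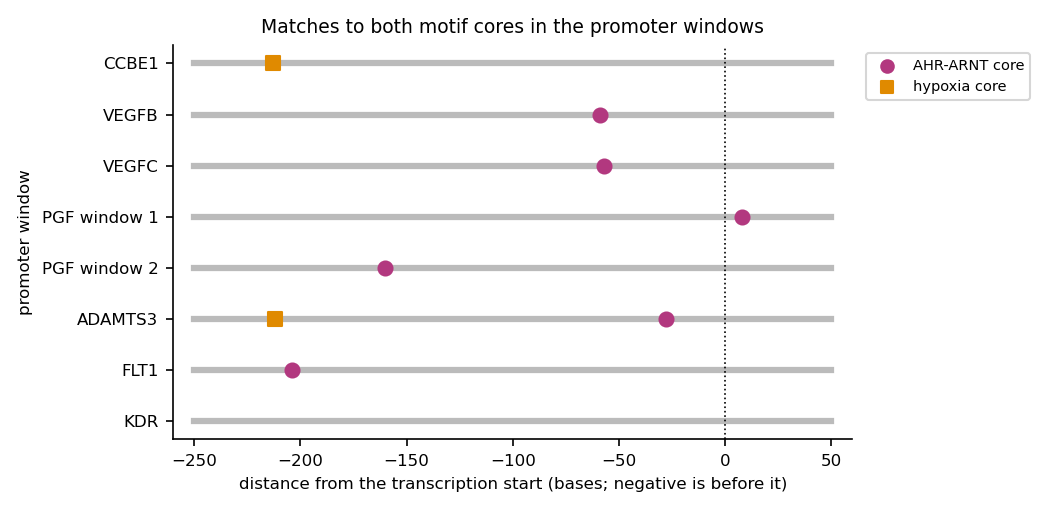
Positions of matches to the AHR-ARNT core (circles) and the hypoxia core (squares) in 8 promoter windows of 7 genes, on either strand, against distance from the RefSeq transcription start in bases. CCBE1 and ADAMTS3 hold a hypoxia core near the far end of the window, and the AHR-ARNT core of VEGFB and VEGFC lies about 60 bases before the start.

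AHR, the target of both hairpins, was counted 2022, 2368 and 2385 times in the PLKO-GFP libraries. It was counted 792, 629 and 662 times with shAHR#2 and 900, 1019 and 912 times with shAHR#3. AHR was low in all 6 hairpin libraries, with no overlap with the control. The log2 fold change was -1.50 (SE 0.05) with shAHR#2 and -1.31 (SE 0.05) with shAHR#3 (adjusted p = 1.05e-25 and 4.95e-24, quasi-likelihood test of edgeR, adjusted by Benjamini and Hochberg over 14274 genes and called under 0.05).

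Many genes passed this test. With shAHR#2 against PLKO-GFP, 65.8% of all genes tested passed, 32.6% higher and 33.2% lower. Of the 6 genes of the set other than CCBE1 that could be tested, 4 passed, with PGF and ADAMTS3 higher and VEGFB and KDR lower. With shAHR#3 against PLKO-GFP, 54.4% of all genes passed, 26.9% higher and 27.5% lower, and 5 of the 6 passed, with PGF and VEGFC higher and VEGFA, VEGFB and KDR lower. Without KDR, which did not reach the minimum of the filter on low counts in every shAHR#3 library, it was 2 higher and 2 lower. Between the hairpins, 42.3% of all genes passed, and VEGFA and ADAMTS3 did, both lower with shAHR#3. Both hairpin comparisons share the same control libraries, so their values are given side by side and not as separate evidence. In these bulk samples, fewer cells with a transcript and less of it per cell cannot be told apart.

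**Figure D2:**
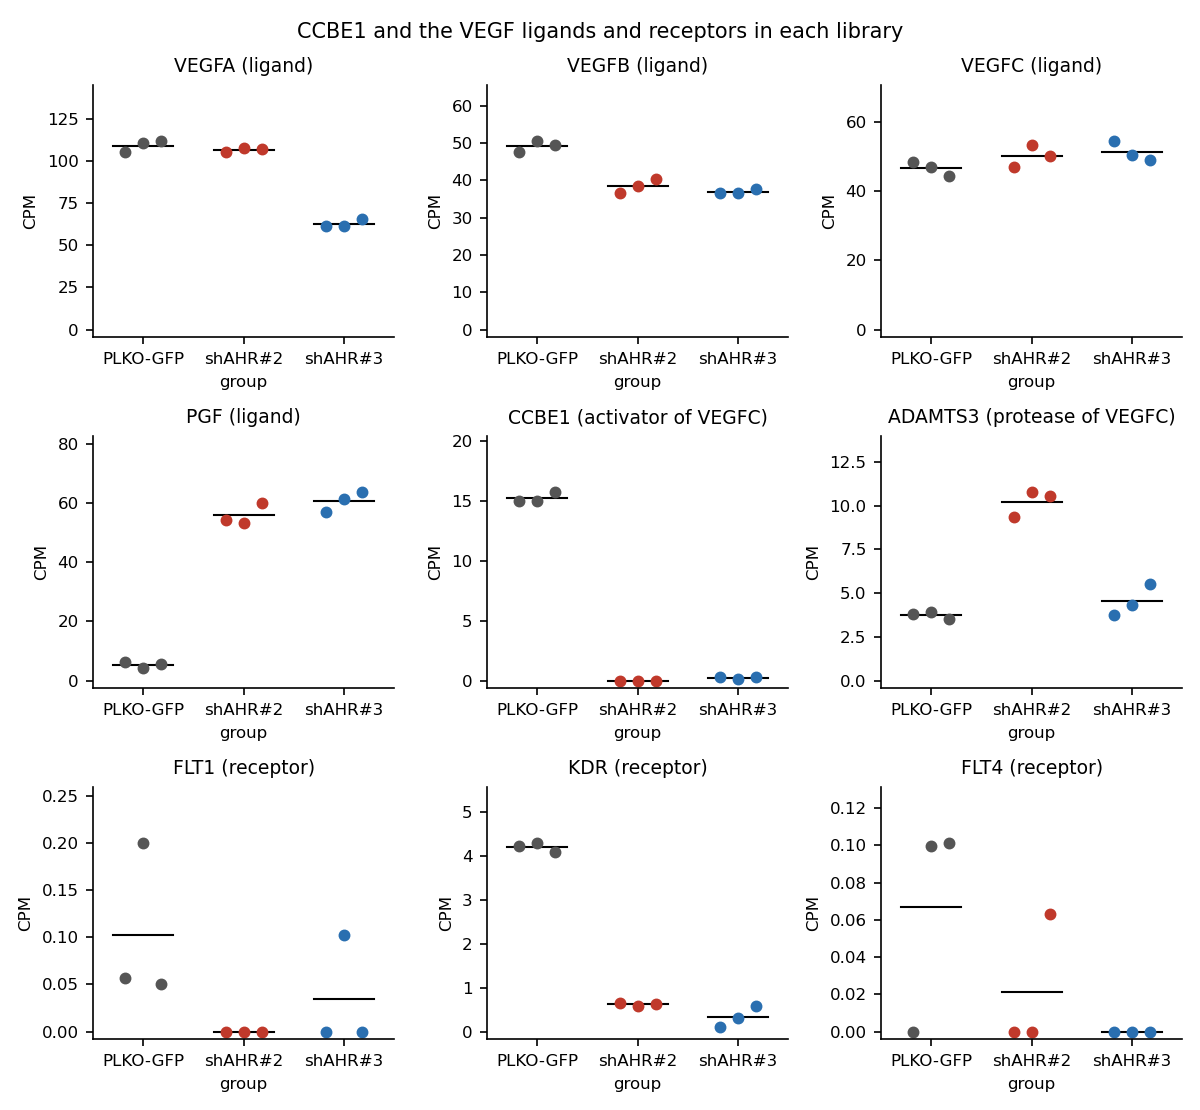
Counts per 1 M counted reads (CPM, on library sizes scaled by TMM) of the 9 genes in each library, with 1 point per library, a bar at the group mean of 3 libraries and a separate vertical scale for each gene. CCBE1 and KDR are high only in PLKO-GFP, PGF is high in all 6 hairpin libraries, ADAMTS3 is high with shAHR#2 and VEGFA is low with shAHR#3, while FLT1 and FLT4 stay at a few counts at most.

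Among the ligands, PGF changed most. PGF (ENSG00000119630.14, chr14:74941834-74955626, minus strand), a ligand of FLT1 named after the placenta, was at 6.16, 4.24 and 5.72 CPM in the PLKO-GFP libraries. With shAHR#2 it was at 54.3, 53.3 and 60 CPM, and with shAHR#3 at 57.1, 61.5 and 63.7 CPM. All 6 hairpin libraries lay far above the control, while the hairpin groups overlapped each other. PGF rose by a log2 fold change of 3.38 (SE 0.09, adjusted p = 8.99e-29, edgeR) with shAHR#2 and of 3.51 (SE 0.08, adjusted p = 4.25e-29) with shAHR#3. Between the hairpins the difference was 0.12 (SE 0.06, adjusted p = 0.0917). It passed the threshold when shAHR#2 replicate 3 or shAHR#3 replicate 1 was left out (0.18 with adjusted p = 0.0263, and 0.17 with adjusted p = 0.0385; adjusted p from 0.0263 to 0.289 over all alternatives).

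VEGFA (ENSG00000112715.25, chr6:43770184-43786487, plus strand), the main ligand of blood vessel growth, was at 105, 111 and 112 CPM in PLKO-GFP. It was at 105, 108 and 107 CPM with shAHR#2 and at 61.5, 61.3 and 65.6 CPM with shAHR#3. The shAHR#2 libraries lay within the range of the control, and the shAHR#3 libraries were all lower. VEGFA fell by 0.80 on the log2 scale (SE 0.04, adjusted p = 1.69e-19, edgeR) with shAHR#3, while the value with shAHR#2 was -0.03 (SE 0.04, adjusted p = 0.46). Tested directly, the hairpins differed by -0.77 (SE 0.04, adjusted p = 1.84e-18).

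VEGFB (ENSG00000173511.10, chr11:64234584-64239264, plus strand), a ligand of FLT1 tied mainly to heart and metabolic tissues, was at 47.5, 50.5 and 49.4 CPM in PLKO-GFP. It was at 36.6, 38.5 and 40.2 CPM with shAHR#2 and at 36.6, 36.6 and 37.5 CPM with shAHR#3. Every hairpin library lay below every control library. The log2 fold changes were -0.36 (SE 0.05, adjusted p = 3.41e-07, edgeR) and -0.41 (SE 0.05, adjusted p = 2.01e-08), and the difference between the hairpins was -0.06 (SE 0.06, adjusted p = 0.454).

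VEGFC (ENSG00000150630.4, chr4:176683538-176792922, minus strand), the lymphatic ligand that CCBE1 helps to activate, was at 48.5, 47 and 44.3 CPM in PLKO-GFP. It was at 47, 53.4 and 50.2 CPM with shAHR#2 and at 54.4, 50.5 and 48.9 CPM with shAHR#3. The shAHR#2 libraries overlapped the control, and the lowest shAHR#3 library lay just above the highest control library. The log2 fold change was 0.11 (SE 0.05, adjusted p = 0.0911, edgeR) with shAHR#2 and 0.14 (SE 0.05, adjusted p = 0.0287) with shAHR#3. The second value did not pass with DESeq2 (adjusted p = 0.066) or without PLKO-GFP replicate 3 or shAHR#3 replicate 1 (adjusted p = 0.168 and 0.18), and its adjusted p ranged from 0.01 to 0.18 over all alternatives. The first passed without shAHR#2 replicate 1 (0.16, adjusted p = 0.0245, with a range of adjusted p from 0.0245 to 0.384). VEGFD (chrX:15345596-15384413), the other ligand activated by cleavage, had between 0 and 4 counts in each of the 9 libraries and was not tested.

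Levels of different genes were compared as CPM per kb of exon. In PLKO-GFP the order from the top was VEGFB at 24.9 ± 0.753 (SD, n = 3), VEGFC at 17.8 ± 0.815, VEGFA at 7.57 ± 0.246, CCBE1 at 2.16 ± 0.0634, PGF at 0.926 ± 0.173, KDR at 0.664 ± 0.0156 and ADAMTS3 at 0.531 ± 0.0295. No neighbours among these 7 overlapped over the libraries, whereas FLT1 and FLT4, last at 0.00813 ± 0.00672 and 0.00757 ± 0.00656, did. With shAHR#2 the order began with VEGFB at 19.5 ± 0.93 and VEGFC at 19.2 ± 1.22, which overlapped, then PGF at 9.63 ± 0.626 and VEGFA at 7.41 ± 0.0878. With shAHR#3 VEGFC at 19.6 ± 1.09 and VEGFB at 18.7 ± 0.268 overlapped, followed by PGF at 10.5 ± 0.58 and VEGFA at 4.35 ± 0.17. PGF thus stood below VEGFA and CCBE1 in the control and above both with either hairpin.

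As a share of the 4 ligands' summed CPM per kb, a measure chosen after the values were seen, PGF made up 1.81% ± 0.355 (SD, n = 3) in PLKO-GFP, 17.3% ± 0.944 with shAHR#2 and 19.7% ± 1.16 with shAHR#3. The share of VEGFB was 48.7% ± 1.18 in PLKO-GFP, 35% ± 0.534 with shAHR#2 and 35.3% ± 0.514 with shAHR#3. VEGFC kept close to its share, at 34.8% ± 1.49, 34.4% ± 1.43 and 36.9% ± 1.92 in the same order. VEGFA held 14.8% ± 0.503, 13.3% ± 0.389 and 8.18% ± 0.307. The summed level itself was 51.3 ± 0.658 CPM per kb in PLKO-GFP, 55.8 ± 2.23 with shAHR#2 and 53.2 ± 0.399 with shAHR#3. With the longest transcript of each gene as its length, the level of PGF with shAHR#2 became 15.7 CPM per kb, and its share 2.6%, 23.1% and 26.2% in the 3 groups.

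**Figure D3:**
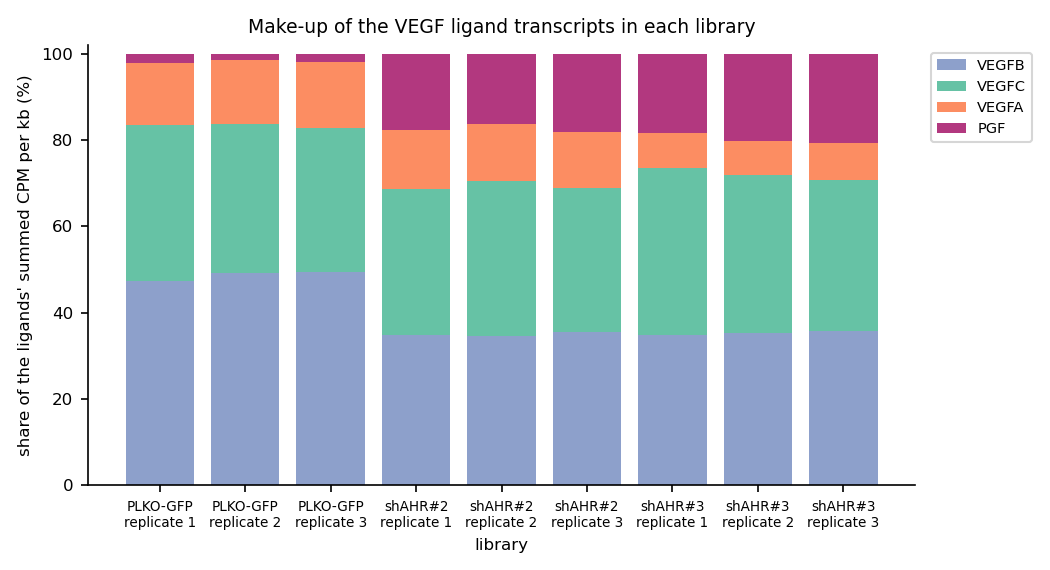
Share (%) of VEGFB, VEGFC, VEGFA and PGF in their summed CPM per kb of exon, with 1 stacked bar per library. PGF holds a thin slice in the PLKO-GFP libraries, 1.81% on average, and 17.3% and 19.7% with shAHR#2 and shAHR#3.

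Of the proteins that activate VEGFC, CCBE1 (ENSG00000183287.14, chr18:59430939-59697662, minus strand) was counted 265, 300 and 311 times in the PLKO-GFP libraries. With shAHR#2 it was not counted in any of the 3 libraries, and with shAHR#3 it was counted 5, 3 and 6 times. All control libraries were high and all hairpin libraries at or close to 0, which is the pattern the set was selected on. In CPM the control stood at 15.2 ± 0.448 (SD, n = 3) and shAHR#3 at 0.235 ± 0.0724. Set against 3 counts per library, CCBE1 was at least 84.1-fold lower with shAHR#2. On counts summed over libraries, the control level was 64.7 times that with shAHR#3, which left 1.54% of the control level. Bounds of this kind cover counting error only. The bound and the ratio describe the values that chose the set, so no interval is given. The 4 long noncoding RNAs that overlap CCBE1 on the opposite strand had 1 count between them over all 9 libraries.

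ADAMTS3 (ENSG00000156140.10, chr4:72280969-72569221, minus strand), the protease that cuts the VEGFC precursor, was at 3.78, 3.9 and 3.49 CPM in PLKO-GFP. It was at 9.33, 10.8 and 10.6 CPM with shAHR#2 and at 3.76, 4.35 and 5.52 CPM with shAHR#3. Only the shAHR#2 libraries stood clear of the control, and the shAHR#3 libraries overlapped it. ADAMTS3 rose by a log2 fold change of 1.45 (SE 0.14, adjusted p = 1.15e-11, edgeR) with shAHR#2. With shAHR#3 the value was 0.29 (SE 0.15, adjusted p = 0.112), and it passed without shAHR#3 replicate 1 (0.41, adjusted p = 0.0322, with a range of adjusted p from 0.0322 to 0.573 over all alternatives). The hairpins differed by -1.16 (SE 0.13, adjusted p = 2.79e-09). CCBE1 was chosen for its near loss, so the opposite direction of ADAMTS3 with shAHR#2 is a description only. With shAHR#3 ADAMTS3 did not pass.

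A list of 12 genes covered other steps of VEGFC and VEGFD processing and the co-receptors of the family. Of 9 tested, 5 were higher and 3 lower with shAHR#2, with a median log2 fold change of 0.25 where that of all genes tested was -0.0032, and the shares of all genes were 32.6% and 33.2%. In the shAHR#3 comparison 3 were higher and 4 lower (median -0.010, all genes -6.9e-05, with 26.9% higher and 27.5% lower), and both medians were the same with PCSK5 at its lower bound. Without genes whose lower group did not reach the minimum of the filter on low counts in all its libraries (PCSK5, and with shAHR#3 ADAMTS14), 4 were higher and 3 lower with shAHR#2, and 2 higher and 3 lower with shAHR#3. PCSK5, a proprotein convertase able to cut the VEGFC precursor at another place, had no count in the control and 11, 9 and 14 counts with shAHR#2 and 12, 12 and 19 with shAHR#3. Against 3 counts per library its level was higher by at least 4.36-fold in the first of these groups and by at least 4.58-fold in the second. FURIN, the convertase best known for such cuts, had log2 values of -0.17 and -0.22 (adjusted p = 0.00234 and 2.23e-04, edgeR). CTSD, a lysosomal protease, rose by 0.25 and 0.54 (adjusted p = 1.22e-08 and 2.72e-17). ADAMTS14, a procollagen protease related to ADAMTS3, went from 1.9 ± 0.13 CPM (SD, n = 3) to 0.868 ± 0.222 and 0.507 ± 0.191, in log2 terms -1.11 and -1.90 (adjusted p = 0.00172 and 5.63e-06). GPC1, a cell surface heparan sulfate proteoglycan that binds growth factors, had -0.70 and -0.38 (adjusted p = 9.99e-11 and 1.38e-05).

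The receptors were scarce in these cells. KDR (ENSG00000128052.10, chr4:55078481-55125595, minus strand), the main signalling receptor for VEGFA, was counted 75, 86 and 81 times in PLKO-GFP, 12, 9 and 10 times with shAHR#2 and 2, 6 and 12 times with shAHR#3. In CPM this was 4.21 ± 0.0988 (SD, n = 3), 0.618 ± 0.0352 and 0.332 ± 0.242. All hairpin libraries were lower than all control libraries, and the shAHR#3 libraries were spread widely. KDR fell by 2.75 on the log2 scale (SE 0.28, adjusted p = 5.43e-11, edgeR) with shAHR#2 and fell by 3.62 (SE 0.30, adjusted p = 6.52e-13) with shAHR#3, where leaving out single libraries gave values from -3.20 to -4.31, the last without shAHR#3 replicate 3, the 1 library of its group that reached the minimum of the filter on low counts. The hairpins differed by -0.87 (SE 0.45, adjusted p = 0.118), a difference that passed without shAHR#3 replicate 3 (-1.56, adjusted p = 0.0187, with a range of adjusted p from 0.0187 to 0.453 over all alternatives).

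FLT1 (ENSG00000102755.12, chr13:28300346-28495145, minus strand), a high-affinity receptor for VEGFA, VEGFB and PGF, was counted 1, 4 and 1 times in PLKO-GFP, never with shAHR#2 and 0, 2 and 0 times with shAHR#3. FLT4 (ENSG00000037280.16, chr5:180601506-180649624, minus strand), the receptor for VEGFC, was counted 0, 2 and 2 times in PLKO-GFP, 0, 0 and 1 times with shAHR#2 and never with shAHR#3. Counts of FLT1 and FLT4 were too low for a comparison between groups. The level of PGF was therefore above that of FLT1 in every library, also per kb.

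The neuropilins NRP1 and NRP2, co-receptors that bind VEGF ligands and semaphorins, were both well measured. NRP1 was at 605, 604 and 601 CPM in PLKO-GFP, 841, 836 and 840 CPM with shAHR#2 and 619, 612 and 612 CPM with shAHR#3. Only the shAHR#2 libraries stood far from the rest, with a log2 fold change of 0.48 (SE 0.02, adjusted p = 1.37e-19, edgeR). The value with shAHR#3 was 0.03 (SE 0.02, adjusted p = 0.381), and the hairpins differed by -0.45 (SE 0.02, adjusted p = 3.40e-18). NRP2, the partner of FLT4 on lymphatic endothelium, was at 18.2, 18.9 and 20.8 CPM in PLKO-GFP, 30.9, 26.6 and 27.6 CPM with shAHR#2 and 32.6, 29 and 30 CPM with shAHR#3. Both hairpin groups lay above the control and overlapped each other, with values of 0.56 (SE 0.08, adjusted p = 3.57e-08) and 0.66 (SE 0.07, adjusted p = 8.35e-10). Per kb, NRP1 stood at 52.4 ± 0.169 (SD, n = 3) in PLKO-GFP, above each of the 9 genes, and at 103 with its longest transcript as length.

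**Figure D4:**
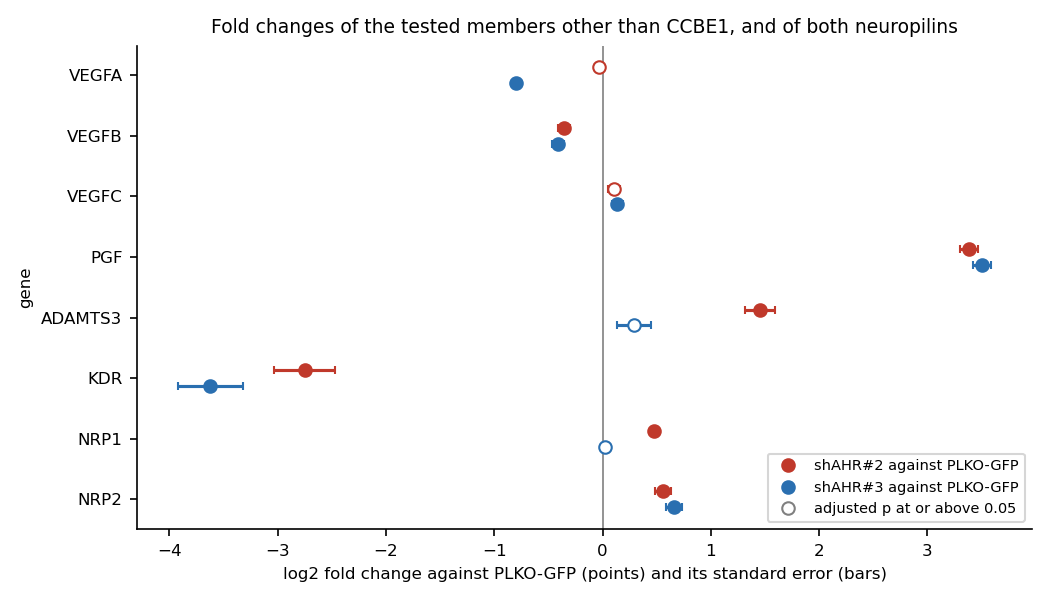
Log2 fold changes against PLKO-GFP (points) with their standard errors (bars) from edgeR's quasi-likelihood fit, for the 6 tested genes other than CCBE1 and for NRP1 and NRP2; open points did not pass an adjusted p of 0.05. PGF lies at 3.38 and 3.51 and KDR at -2.75 and -3.62, while VEGFA, ADAMTS3 and NRP1 differ between the hairpins.

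Because VEGF receptors mark endothelium, markers of endothelial and lymphatic cells were read beside them. Of 15 such genes 4 were tested, of which 3 were higher with shAHR#2 and 3 higher and 1 lower with shAHR#3, where 65.8% and 54.4% of all genes passed in either direction. Their summed level was 90, 86.4 and 80.4 CPM in the PLKO-GFP libraries, 168, 184 and 169 CPM with shAHR#2 and 132, 137 and 144 CPM with shAHR#3. ESAM, a junction protein and the most abundant of them, made up most of each sum. The adhesion protein PECAM1 went from 2.4 ± 0.287 CPM (SD, n = 3) to 11.2 ± 1.15 with shAHR#2 and 12.2 ± 0.589 with shAHR#3. ROBO4 was the marker that was lower with shAHR#3 (-0.40 on the log2 scale), and it did not pass with shAHR#2 (0.17). The defining genes CLDN5, ERG and SOX17 had no count in any library, and CDH5 and VWF had none in the control and at most 12 and 9 in any other library. The marker sum was higher in both hairpin groups, where KDR was lower, and its part in the values above was not tested.

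The labelled mammary epithelial identity was checked in the same way. Of 12 epithelial and MDA-MB-231 markers 8 were tested. KRT8 and KRT18, keratins of luminal epithelium, stood at 284 ± 9.27 and 304 ± 5.65 CPM (SD, n = 3) in PLKO-GFP. VIM, a mesenchymal filament protein, was the most abundant marker at 2634 ± 27 CPM, while the epithelial adhesion genes CDH1 and EPCAM were at 0.909 ± 0.182 and 6.62 ± 0.161 CPM. Of the 8, 3 were higher and 1 lower with shAHR#2, and 6 higher and 1 lower with shAHR#3, again beside 65.8% and 54.4% of all genes. CDH1 rose by 1.00 and 2.19 on the log2 scale (edgeR, adjusted p = 0.00165 and 2.47e-10) and VIM by 0.56 and 0.34 (adjusted p = 9.51e-22 and 6.93e-15). KRT8 and KRT18 rose by 0.40 and 0.31 with shAHR#3 (adjusted p = 1.96e-14 and 2.68e-12), and CD44, an adhesion receptor, fell by 0.23 and 0.49 (adjusted p = 3.24e-10 and 7.02e-19). The progesterone receptor gene PGR had no count in any library, and the estrogen receptor gene ESR1 had at most 4. Of 10 fibroblast and blood markers 6 were tested, and their summed level was 15.6 to 18.9 CPM in PLKO-GFP, 17 to 18.6 CPM with shAHR#2 and 31.1 to 34.8 CPM with shAHR#3, with PDGFRB the most abundant in PLKO-GFP and shAHR#3 and COL1A1 in shAHR#2. Without PDGFRB the sums were 7.74 to 10.5 CPM in PLKO-GFP, 12.1 to 13.9 CPM with shAHR#2 and 13.7 to 16.4 CPM with shAHR#3. Of the 6 tested, 2 were higher and 2 lower with shAHR#2, and 4 higher and 1 lower with shAHR#3, beside 65.8% and 54.4% of all genes. Among these calls PTPRC, COL1A2 and, with shAHR#3, LUM did not reach the minimum of the filter in every library of the lower group, and without them it was 1 higher and 1 lower, then 2 higher and 0 lower; CD3E and HBB were among those without a count. The part of any of these markers in the values of the VEGF genes was not tested.

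Downstream of the receptors, 42 of 44 listed genes of VEGF receptor signalling were tested, most of them used by many other receptors as well. With shAHR#2, 24 were higher and 12 lower (median log2 fold change 0.21, all genes -0.0032, with 32.6% higher and 33.2% lower), and with shAHR#3, 17 were higher and 13 lower (median 0.04, all genes -6.9e-05, with 26.9% higher and 27.5% lower). SPHK1, which makes the lipid sphingosine-1-phosphate, rose by 1.76 and 1.26 (adjusted p = 6.78e-17 and 4.22e-12, edgeR). PLCG2, a phospholipase that releases calcium, rose by 0.59 and 0.92 (adjusted p = 1.79e-05 and 1.70e-09), while PLCG1, its relative and a substrate of KDR, named after its values were seen, fell by 0.43 and 0.22 (adjusted p = 3.01e-13 and 1.22e-06). NFATC1, a calcineurin-dependent transcription factor, rose by 0.91 and 0.57 (adjusted p = 3.45e-05 and 0.00775), the second of which did not pass without shAHR#3 replicate 3 (0.46, adjusted p = 0.0623, with a range of adjusted p from 0.00319 to 0.0623 over all alternatives). The focal adhesion protein PXN stood at log2 values of -0.92 and -0.51 (adjusted p = 8.70e-26 and 5.47e-18). The calcineurin subunit PPP3CA had -0.74 and -0.61 (adjusted p = 1.66e-19 and 4.74e-17), and the adaptor NCK2 had -0.60 and -0.73 (adjusted p = 9.67e-09 and 1.53e-10).

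Oxygen sensing controls VEGFA in many cells, and all 19 listed genes of oxygen sensing and of known hypoxia response were tested. With shAHR#2, 13 were higher and 3 lower (median log2 fold change 0.46, all genes -0.0032, with 32.6% higher and 33.2% lower), and with shAHR#3, 12 were higher and 2 lower (median 0.26, all genes -6.9e-05, with 26.9% higher and 27.5% lower). EGLN3, an oxygen-dependent prolyl hydroxylase, rose by 2.23 and 1.55 (adjusted p = 6.04e-18 and 1.77e-12, edgeR). NDRG1, a stress-induced gene, went from 141 ± 2 CPM (SD, n = 3) to 464 ± 5.91 and 203 ± 6.23, in log2 terms 1.72 and 0.53 (adjusted p = 1.09e-34 and 1.28e-17). ADM, which encodes the vasodilator peptide adrenomedullin, rose by 0.96 and 0.76 (adjusted p = 3.67e-18 and 7.31e-15). The genes lower with both hairpins were HIF1AN, an asparaginyl hydroxylase acting on HIF proteins, at -0.53 and -0.29 (adjusted p = 4.90e-15 and 1.50e-08), and the glucose transporter gene SLC2A1 at -0.16 and -0.12 (adjusted p = 4.51e-06 and 2.06e-04). VEGFA, itself a classical hypoxia-induced gene, did not pass with shAHR#2 (-0.03) and was lower with shAHR#3 (-0.80), as given above. The list holds oxygen sensors as well as hypoxia targets, and a hypoxia response was not tested.

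Among 36 other angiogenic ligands, receptors and inhibitors, 27 were tested, NRP1 and NRP2 included. With shAHR#2, 17 were higher and 6 lower (median log2 fold change 0.51, all genes -0.0032, with 32.6% higher and 33.2% lower), and with shAHR#3, 16 were higher and 5 lower (median 0.55, all genes -6.9e-05, with 26.9% higher and 27.5% lower). Leaving out SERPINF1, DLL4, THBS2 and, with shAHR#2, TYMP, whose lower group did not reach the minimum of the filter in all libraries, 15 were higher and 4 lower with shAHR#2, and 14 higher and 4 lower with shAHR#3. SERPINF1, which encodes the angiogenesis inhibitor PEDF, was counted 4, 2 and 3 times in the control, 38, 40 and 39 times with shAHR#2 and 48, 36 and 37 times with shAHR#3 (log2 fold changes 3.85 and 3.64, given without a test since it passed the filter on low counts through the hairpin libraries alone). ANGPTL2, a secreted angiopoietin-like protein, rose by 2.30 and 1.86 (adjusted p = 2.40e-29 and 1.06e-25, edgeR). The chemokine CXCL8 rose by 2.37 and 1.14 (adjusted p = 1.32e-25 and 1.96e-14). THBS1, an abundant matrix inhibitor of angiogenesis, went from 1957 ± 41.2 CPM (SD, n = 3) to 672 ± 20.3 and 831 ± 9.95, in log2 terms -1.54 and -1.24 (adjusted p = 1.70e-34 and 5.83e-31). Its relative THBS2 was counted 58 times over the control libraries, 3 times with shAHR#2 and 5 times with shAHR#3. The ratios were 16.8 (95% interval 5.48 to 84, exact binomial on summed counts) and 12 (4.86 to 38.3). These intervals cover counting error only. When single libraries were left out, the fitted log2 value of THBS2 ranged from -4.71 to -3.44 with shAHR#2 and from -4.16 to -3.21 with shAHR#3. EDN1, which encodes the vasoconstrictor endothelin, had -0.98 and -0.48 (adjusted p = 1.06e-09 and 1.32e-04). Inhibitors and promoters of vessel growth were found on both sides of this list.

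**Figure D5:**
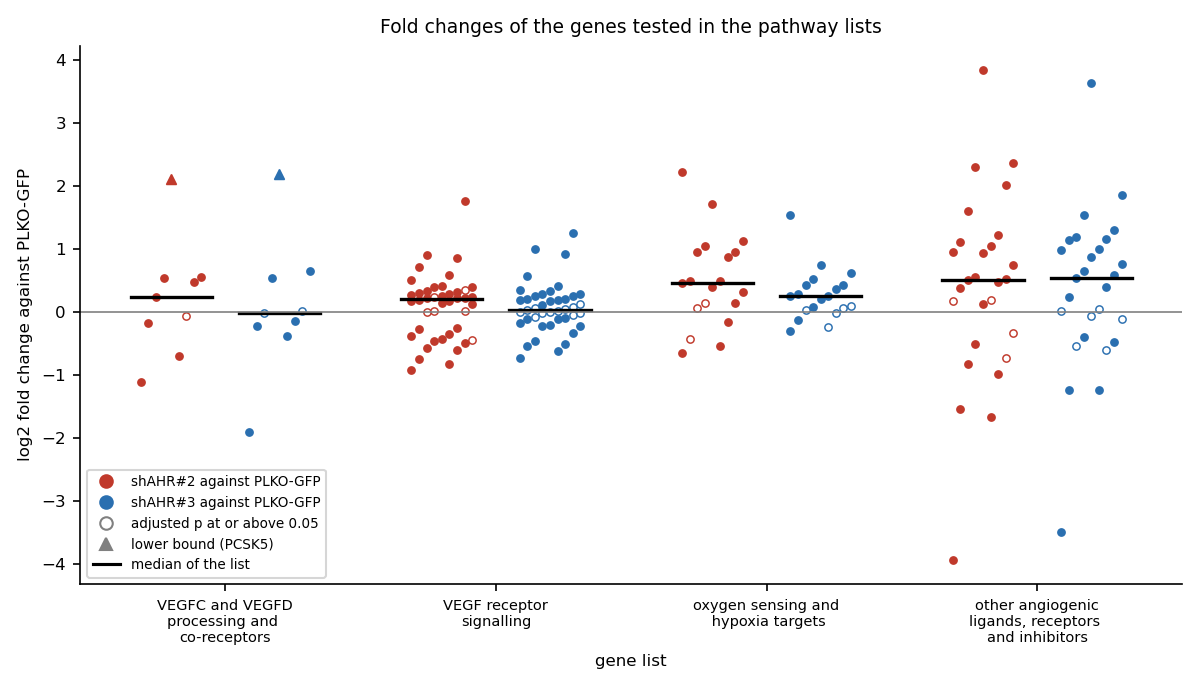
Log2 fold changes against PLKO-GFP of the tested genes of 4 lists, with 1 point per gene, open where the adjusted p was 0.05 or above, triangles for PCSK5 at its lower bound and bars at the list medians. The hypoxia and angiogenic lists have medians of 0.46 and 0.51 with shAHR#2 and of 0.26 and 0.55 with shAHR#3, and the signalling list is close to 0 with shAHR#3.

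The genes whose profile over the 9 libraries was most like that of CCBE1, by the root mean square difference of centred log2 CPM, were SEMA5A (0.61), PDE1C (0.62), RNF144A (0.75), TENM2 (0.77) and PSG1 (0.77). SEMA5A, a transmembrane semaphorin, was counted 259, 302 and 339 times in PLKO-GFP, 0, 0 and 2 times with shAHR#2 and 13, 14 and 13 times with shAHR#3. PDE1C, a calmodulin-dependent phosphodiesterase, was counted 265, 293 and 340 times, never, and 0, 6 and 6 times in the same order. These genes lie on chromosomes 5, 7, 2, 5 and 19, and none is on chromosome 18 with CCBE1. The profiles most like VEGFC were those of GLI2 (0.041), ACIN1 (0.044) and PSMD9 (0.045), and those most like VEGFA were WNT7B (0.063), STEAP2 (0.098) and CLMN (0.11), where WNT7B was counted 855, 1065 and 1113 times in PLKO-GFP, 954, 788 and 778 times with shAHR#2 and 510, 554 and 614 times with shAHR#3.

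Chromosomal neighbours did not share the near loss of CCBE1. Of 5 tested genes within 1 Mb, LMAN1 was higher with both hairpins at 0.35 and 0.15 on the log2 scale. MALT1 (-0.18 and -0.20) and ZNF532 (-0.55 and -0.38) were lower with both. SEC11C and PMAIP1 were lower with shAHR#3 (-0.46 and -0.40) and did not pass with shAHR#2 (-0.08 and 0.08). The hairpins were not compared directly for these neighbours. Within 0.5 Mb of CCBE1, 1 of 3 tested genes was higher and none lower with shAHR#2, and within 2 Mb 2 of 12 were higher and 7 lower. With shAHR#3 it was 1 higher and 2 lower within 0.5 Mb, and 1 higher and 8 lower within 2 Mb. The 205 tested genes of chromosome 18 had medians of -0.14 and -0.17.

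For these counts and those of the other genes of the set, given within 1 Mb, the comparison is with the shares of all genes tested, of which 32.6% passed as higher and 33.2% as lower in the shAHR#2 comparison, and 26.9% and 27.5% in that of shAHR#3. Near KDR, of 8 tested neighbours 7 were lower and 1 higher with shAHR#2, and 6 lower and 0 higher with shAHR#3. Near FLT4, of 20 tested, 15 were lower and 2 higher with shAHR#2, and 13 lower and 3 higher with shAHR#3, on a chromosome whose 656 tested genes had medians of -0.48 and -0.26. Near PGF, of 27 tested, 11 were higher and 6 lower with shAHR#2, and 13 higher and 1 lower with shAHR#3. Around ADAMTS3 both of the 2 tested neighbours were lower with either hairpin, and around VEGFC, of 5 tested, 3 were lower with shAHR#2 and 4 with shAHR#3, with 0 higher. Around VEGFA, 6 of 42 were higher and 18 lower with shAHR#2, and 3 higher and 21 lower with shAHR#3. For VEGFB it was 14 and 17 of 51, then 5 and 11, and for FLT1 3 and 1 of 7, then 1 and 2. Within 2 Mb of ADAMTS3, of 15 tested, 5 were higher and 8 lower with shAHR#2, and 5 higher and 7 lower with shAHR#3. The counts around ADAMTS3 and VEGFC within 1 Mb rest on 2 and 5 genes. Whether neighbours of any of these genes differed from all genes was not tested.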

How the data were processed

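RNA of 9 MDA-MB-231 libraries was measured in 3 groups of 3. Hairpins carry the numbers of the sample labels; the methods of the paper number them differently, and which target sequence belongs to which label was not settled. The authors made stranded mRNA libraries from 500 ng of total RNA, read single ends on a NextSeq 500, used STAR to align to GRCh38.p13 and deposited a raw count of reads for each gene. The submitters' processing notes also name FastQC, Subread and featureCounts. The strand setting and gene models were not given in the sources used here, so counts of overlapping and antisense genes are uncertain.

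Everything after the counts was computed with edgeR 4.0.16, DESeq2 1.42.0 and limma 3.58.1 in R 4.3.3, and with Python 3.11.15. filterByExpr (minimum count 10, minimum total 15) kept 14274 of 60649 genes with 99.91% of counts, and libraries, of 15991396 to 20374460 counts, were scaled by TMM. edgeR's quasi-likelihood test was fitted once to all libraries with a mean per group, with Benjamini-Hochberg adjustment over all genes tested. A standard error is the fold change divided by the square root of F. Replicates differed by more than counting error alone (1.76 to 4.24 as chi-square over its degrees of freedom).

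Levels per kb used the union of exons of GENCODE 44 on GRCh38, which held 60507 of the gene identifiers. Folds against a group at 0 in all libraries are bounds against 3 counts per library. Other folds of genes near 0 are ratios on summed counts, with a counting interval except for CCBE1. Likeness used log2 CPM with a prior count of 2.

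Members and lists were chosen with earlier results of these data known. Named were AHR, the 9 genes, NRP1, NRP2 and VEGFD, from each of 4 pathway lists at most 3 genes with the largest shared increase and 3 with the largest shared decrease, the 5 genes most like CCBE1, the 3 most like VEGFC and VEGFA, and the markers. Neighbours within 1 Mb were named for CCBE1 after their values were seen.

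Alternatives were DESeq2, DESeq2 size factors, a mean of at least 50 counts, all counted genes kept, only the groups compared, a replicate block, leaving out each library, an adjusted p under 0.01, the longest transcript as length, a prior count of 0.5 and windows of 0.5 and 2 Mb. The longest transcript was applied to the ligand shares after seeing the data. Protein sequences were left out for want of a reference.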

Additional observations from a re-analysis of the deposited data

Results flagged for a closer look

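The hairpins were compared directly for AHR, the tested VEGF genes other than CCBE1, NRP1, NRP2 and the genes named from the 4 pathway lists, where these passed the test with at least 1 hairpin, and the genes below differed between shAHR#3 and shAHR#2 (edgeR, Benjamini-Hochberg adjusted p under 0.05). Values are log2 fold changes of shAHR#3 against shAHR#2, and no cause was tested. AHR itself was slightly higher with shAHR#3, at 0.19 (adjusted p = 0.00283), and lost the call without shAHR#3 replicate 2 (0.13, adjusted p = 0.0626, with a range of adjusted p from 3.27e-04 to 0.0626 over all alternatives).

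Within the VEGF genes and their co-receptors, VEGFA at -0.77, ADAMTS3 at -1.16 and NRP1 at -0.45 were lower with shAHR#3. In the processing list CTSD at 0.29 and GPC1 at 0.32 were higher with shAHR#3. In receptor signalling SPHK1 at -0.50 was lower, and PLCG2 at 0.33, PXN at 0.41 and PPP3CA at 0.13 were higher. PLCG2 did not pass without shAHR#2 replicate 1 (0.27, adjusted p = 0.062, with a range from 0.00475 to 0.062), nor PPP3CA without shAHR#2 replicate 3 (0.09, adjusted p = 0.0926, with a range from 0.00227 to 0.0926).

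Among the oxygen sensing and hypoxia genes EGLN3 at -0.68, NDRG1 at -1.19 and ADM at -0.20 were lower with shAHR#3, and HIF1AN at 0.24 was higher. Only list genes moved the same way by both hairpins were named. This left out EPAS1, which had -0.64 with shAHR#2 and 0.43 with shAHR#3, a difference of 1.08. Of the 19 tested genes of this list, 2 were higher and 12 lower with shAHR#3 than with shAHR#2. Between the hairpins, 42.3% of all genes tested passed. Among the other angiogenic genes ANGPTL2 at -0.44 and CXCL8 at -1.23 were lower, and THBS1 at 0.31 and EDN1 at 0.50 were higher. For PXN, PPP3CA, GPC1, HIF1AN, THBS1 and EDN1, which fell with both hairpins, a positive value means the smaller fall with shAHR#3.

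The cell type markers, the genes most like CCBE1, VEGFC or VEGFA and PLCG1, named after its values were seen, were not gone through in this way, and several of them also differed, such as PLCG1 at 0.21, ESAM at -0.35, CDH1 at 1.20, PDGFRB at 1.99 and WNT7B at -0.84.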

How the results depend on the processing

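For 93 gene results of the fit, among them those of PCSK5, SERPINF1 and THBS2 for which the report gives no test, no direction changed and no call was lost or gained with DESeq2 size factors, without the filter on low counts, with only the groups compared or with the replicate block; DESeq2 and an adjusted p under 0.01 each lost the call of VEGFC with shAHR#3, and at a mean of at least 50 counts 78 of the 93 could be fitted, with no change. Differences between the hairpins changed sign only when single libraries were left out, and none of these was called: VEGFC ranged from -0.0142 to 0.0802, PCSK5 from -0.14 to 0.305, FURIN from -0.0816 to 0.0106 and THBS2 from -0.23 to 1.24; the cause was not tested. Leaving out single libraries gained or lost 12 calls in all, and those of the VEGF genes are given with their values above. Of the 5 genes most like CCBE1, 3 were also among the nearest 5 with a prior count of 0.5. Replicate numbers did not pair the libraries: correlations of same-numbered deviations from group means ran from -0.05 to 0.08, and 2 of 9 libraries correlated best with their own number in both other groups. With the replicate block 9406 genes were called with shAHR#2, 7844 with shAHR#3 and 6107 between the hairpins. Depth limits FLT1, FLT4 and VEGFD, with at most 4 counts in a library, and makes KDR with shAHR#3 imprecise. Taking the longest transcript as length moves levels per kb, most for NRP1, FLT1, PGF and FLT4 among the genes given per kb. Within 0.5 Mb, 33.3% of the tested neighbours of CCBE1 were called with shAHR#2, against 60% within 1 Mb and 75% within 2 Mb; with shAHR#3 it was 100%, 100% and 75%.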
